A study of Mus musculus with 9 samples.

Results

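The genes encoding the MEF2 transcription factors (Mef2a, Mef2b, Mef2c and Mef2d) and the class IIa histone deacetylases (Hdac4, Hdac5, Hdac7 and Hdac9) were followed through muscle cell differentiation, lactate treatment and adult muscle. These 8 genes were taken by symbol from the 46078 genes listed for cultured cells and the 38293 listed for muscle tissue, and every symbol matched 1 Ensembl identifier in both. RNA was sequenced from 9 libraries of C57BL/6 mice, 3 of the gastrocnemius muscle (GAS), 2 of primary myoblasts (MB), 2 of myotubes (MT) and 2 of lactate-treated MB. MB were grown with horse serum, fetal bovine serum and basic FGF on Matrigel, and MT came from MB kept for 3 days in differentiation medium with little serum. Lactate-treated MB received 10 mM sodium-L-lactate in PBS, and control cells received PBS alone. GAS is whole tissue, here from adult females per the study's methods, and holds vessels, nerve, fat and connective tissue beside the fibers. No group carried a transgene or a deletion.

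MEF2 proteins bind an A/T-rich element in the control regions of muscle genes and activate them together with the MyoD family. Class IIa histone deacetylases have little catalytic activity of their own, bind MEF2 through their N-terminal part and bring corepressors to its target genes. Calcium-dependent kinases phosphorylate them, which creates docking sites for 14-3-3 proteins, and the bound deacetylases leave the nucleus, so that their activity is set largely by location and not by RNA level. In muscle this switch is known for its part in differentiation and in fiber type.

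Levels are given as RPKM, counts scaled to the exonic length of the gene and to the size of the library after TMM normalization, since only a value per length can be compared between genes. Between 19307793 and 19941574 reads were counted per GAS library and between 5198247 and 10839516 per library of cultured cells. MT replicate 1 stood apart from MT replicate 2, with 28599 against 17965 genes that had a count. The markers of muscle fibers and myotubes (Acta1, Ckm, Myh3, Myog and Tnnt3) summed to 10018.5 and 12239 CPM (counts scaled to library size after TMM, without length) in MT and to 168 and 83.6 CPM in MB. The myoblast markers (Myf5, Pax7, Cdk1, Mki67 and Top2a) summed to 683 and 1148 CPM in MB and to 229 and 176 CPM in MT. GAS had between 66654 and 74021 CPM of the fiber and myotube markers, so that the order of the groups follows their labels. The 5 fibroblast markers, Col1a1 and Dcn among them, summed to 13536 CPM in MT replicate 1, 1875 CPM in MT replicate 2 and 2.70 and 2.17 CPM in MB, where Lum was at 0. Of the 6 endothelial markers, Cdh5, Kdr, Tie1 and Tek were at 0 in MB, and the list summed to 18.5 and 4.20 CPM in MT against 7.11 and 4.10 CPM in MB. The 5 macrophage and leukocyte markers summed to 23.2 and 9.92 CPM in MT and to 15.4 and 16.1 CPM in MB, so that the list as a whole did not separate MT from MB. Of these, Ptprc and Adgre1 had 60 and 52 counts in MT replicate 1 and 0 counts in MT replicate 2 and in MB. Ribosomal RNA genes took 9.20% of the counts in MB replicate 1 and 13.8% in lactate-treated replicate 1, against 0.131% to 0.575% in the other cultured libraries. In these bulk samples, fewer cells of a type and less RNA per cell cannot be told apart.

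On mm10, Mef2a lies at chr7:67231163-67372858, Mef2b at chr8:70139711-70167488, Mef2c at chr13:83504034-83667080 and Mef2d at chr3:88142372-88172086. Hdac4 lies at chr1:91928779-92195699, Hdac5 at chr11:102194432-102230166, Hdac7 at chr15:97792664-97844502 and Hdac9 at chr12:34047580-34917095. Each has from 5 to 31 annotated transcripts, with 31 for Mef2c, and the counts are sums over all of them. Exonic bases are shared with a gene on the opposite strand by Hdac4 (3536 bases with Gm26720, which had 0 counts in cultured cells and 2 to 11 in GAS), Mef2d (531 bases with 1700113A16Rik, at most 3 counts in cultured cells and 22 to 27 in GAS), Mef2a and Hdac7, and Mef2b shares 62 bases with Borcs8 on the same strand. The promoter windows of RefSeq (GRCm38.p6, 250 bases before to 50 bases after each start site) cover the 8 genes with 14 windows. They were searched on both strands for the consensus element of MEF2, for the E-box CANNTG, which MyoD family factors and many others bind, and for its form CAGCTG, which is also counted as a CANNTG. The MEF2 element was held by 3.19% of all 32851 windows and by those of Mef2a and Hdac5. CANNTG was held by 72.3% of all windows and by 8 of the 14 windows of these genes, and CAGCTG by 16.3% of all windows and by both windows of Hdac9 and 1 of the 4 of Hdac7. The stretches that hold the MEF2 element and, for Hdac9 and Mef2c, E-boxes near the start site of 1 window each are shown, with the MEF2 element and the E-boxes in capitals. Mef2a (chr7:67372839-67372898, minus strand) and Hdac5 (chr11:102230153-102230212, minus strand) are shown from 40 bases before to 20 bases after the start site, Hdac9 (chr12:34917136-34917195, minus strand) from -100 to -41 and Mef2c (chr13:83503914-83503973, plus strand) from -120 to -61.
Mef2a: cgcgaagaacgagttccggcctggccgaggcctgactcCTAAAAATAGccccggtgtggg
Hdac5: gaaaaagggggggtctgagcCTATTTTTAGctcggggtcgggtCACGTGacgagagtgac
Hdac9: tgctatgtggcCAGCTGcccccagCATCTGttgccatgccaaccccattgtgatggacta
Mef2c: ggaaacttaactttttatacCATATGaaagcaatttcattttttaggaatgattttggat
These are matches of letters and not measured binding, and a window without a match says nothing of the factor.

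The comparison of MT with MB asks how RNA levels change when dividing MB fuse and differentiate. Mef2c, Mef2a, Hdac4 and Hdac9 rose, and Mef2d, Hdac5 and Hdac7 were not called. A call needed an adjusted p under 0.05 and an absolute log2 fold change (log2FC) over 0.5, both from edgeR's quasi-likelihood test on the counts. Of the 8 genes, 7 passed the filter on low counts, and 4 of these 7 were called higher and 0 lower. Of all 12921 genes tested, 11.0% were called higher and 6.86% lower. Mef2c and Hdac9 passed the filter only through MT, where they are high, so that the count of 4 is no support for a change of the families. Among genes with at least 10 counts in every library, which leaves out these 2, 2 of 5 members and 7.19% of 10648 genes were called higher. With each library left out in turn, the log2FC stayed above 0 for Mef2c, Mef2a, Hdac4 and Hdac9 and below 0 for Hdac7. For Mef2d and Hdac5 it changed sign. The calls of Mef2a, Hdac4 and Hdac9 did not hold in every such fit, as given below. In the fit of all 4 libraries, the median log2FC was 1.59 over the 7 genes, Mef2c and Hdac9 included, and 0.07 over all genes tested. Among genes with at least 10 counts in every library, it was 0.54 over the 5 members and 0.02 over all genes. The labels call the libraries biological replicates without naming separate cultures or animals, so that these p-values measure the spread between 2 libraries per group, which may be technical in part.

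Mef2c encodes the MEF2 factor best known for building the sarcomere. It was counted 11 and 8 times in the MB libraries, which is 0.0858 and 0.0614 RPKM, and stood at 33.5 and 57.2 RPKM in the MT libraries. The groups were far apart, and the GAS libraries had 43.8, 41.8 and 40.3 RPKM. The log2FC was 9.23 ± 0.71 (SE, n = 2 and 2; edgeR, adjusted p = 8.72e-05), with a 95% interval from 7.66 to 10.8. It was called whichever library was left out, with a log2FC from 8.71 to 9.51. The part of other cells in the Mef2c value was not tested. Among protein-coding genes ranked by RPKM, Mef2c stood between 692 and 750 of 21250 in GAS and at 1288 and 905 of 21596 in MT.

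Mef2a, a more widely expressed member of the family, had 8.60 and 10.5 RPKM in MT and 2.11 and 4.30 RPKM in MB. The groups did not overlap, with MB replicate 1 the lowest library. The log2FC was 1.59 ± 0.46 (SE, n = 2 and 2; edgeR, adjusted p = 0.0364), a 3.01-fold difference. The call was lost without MB replicate 1 (log2FC 1.10, edgeR adjusted p = 0.258), without MT replicate 1 (adjusted p = 0.146) and without MT replicate 2 (adjusted p = 0.139). Lysmd4, on the opposite strand, shares 302 exonic bases with Mef2a and had 417 and 234 counts in MT and 65 and 61 in MB, and whether the counting used strand is not given in the sources used here.

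Mef2d, which is expressed in MB before differentiation, had 10.5 and 4.71 RPKM in MB and 7.65 and 13.5 RPKM in MT. The groups overlapped, and the libraries of each differed from each other by more than the means did. The log2FC was 0.42 ± 0.53 (edgeR, adjusted p = 0.622) with a 95% interval from -0.74 to 1.59, and it turned negative without MT replicate 2 (-0.12) and without MB replicate 2 (-0.15). Mef2b had 1 count in MT replicate 1 and 0 counts in all other libraries, which allows up to 0.368 CPM in MB and 0.156 CPM in GAS. These limits cover counting error only, at 3 counts for a count of 0, on the same TMM scale as the levels.

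Hdac4, the class IIa deacetylase that carries a docking site for CaMKII and links nerve activity to muscle genes, had 5.67 and 6.76 RPKM in MT and 1.88 and 2.17 RPKM in MB. MT and MB did not overlap, and the libraries within each group were close. The log2FC was 1.61 ± 0.42 (SE, n = 2 and 2; edgeR, adjusted p = 0.025), a 3.06-fold difference. The call was lost in a fit of all 6 cultured libraries (adjusted p = 0.0581) and without MB replicate 1 (0.0743), MT replicate 1 (0.157) or MT replicate 2 (0.137), with a log2FC from 1.39 to 1.68.

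Hdac9, whose products include a form without the catalytic domain known as MITR, had 227 and 25 counts in MT and 0 and 2 counts in MB. Both MT libraries were above both MB libraries, but they were far from each other at 1.15 and 0.217 RPKM. Against the 2 counts of both MB libraries, the ratio was 139 for MT replicate 1 (exact 95% counting interval 38.1 to 1155) and 26.2 for MT replicate 2 (6.52 to 228). The fitted log2FC, which here depends on the prior count, was 6.30 ± 1.32 (edgeR, adjusted p = 0.00915). Without MT replicate 1, it was 4.51 and the call was lost (adjusted p = 0.0567). The higher library is the one with 13536 CPM of fibroblast markers against 1875 CPM. In it alone 4921508M14Rik, a transcript annotated inside Hdac9 on the same strand, had 33 counts. This is not particular to that transcript, since 8918 genes were counted in this library and in no other cultured library. Each of the other cultured libraries had from 129 to 290 such genes. The part of other cells in the Hdac9 value was not tested.

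Hdac5, a deacetylase of similar build to Hdac4, had 9.79 and 11.7 RPKM in MT and 10.2 and 7.93 RPKM in MB. The groups overlapped, and the log2FC was 0.23 ± 0.42 (edgeR, adjusted p = 0.752) with a 95% interval from -0.71 to 1.16. Hdac7, known from endothelium and thymocytes and also made in myoblasts, went the other way, with 2.13 and 1.94 RPKM in MT and 4.97 and 3.75 RPKM in MB. Both MT libraries were below both MB libraries, but the log2FC of -1.11 ± 0.51 was not called (edgeR, adjusted p = 0.16). Its 95% interval ran from -2.23 to 0.02, and it was called lower only in the fit without MB replicate 2 (log2FC -1.44, adjusted p = 0.026).

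**Figure D1:**
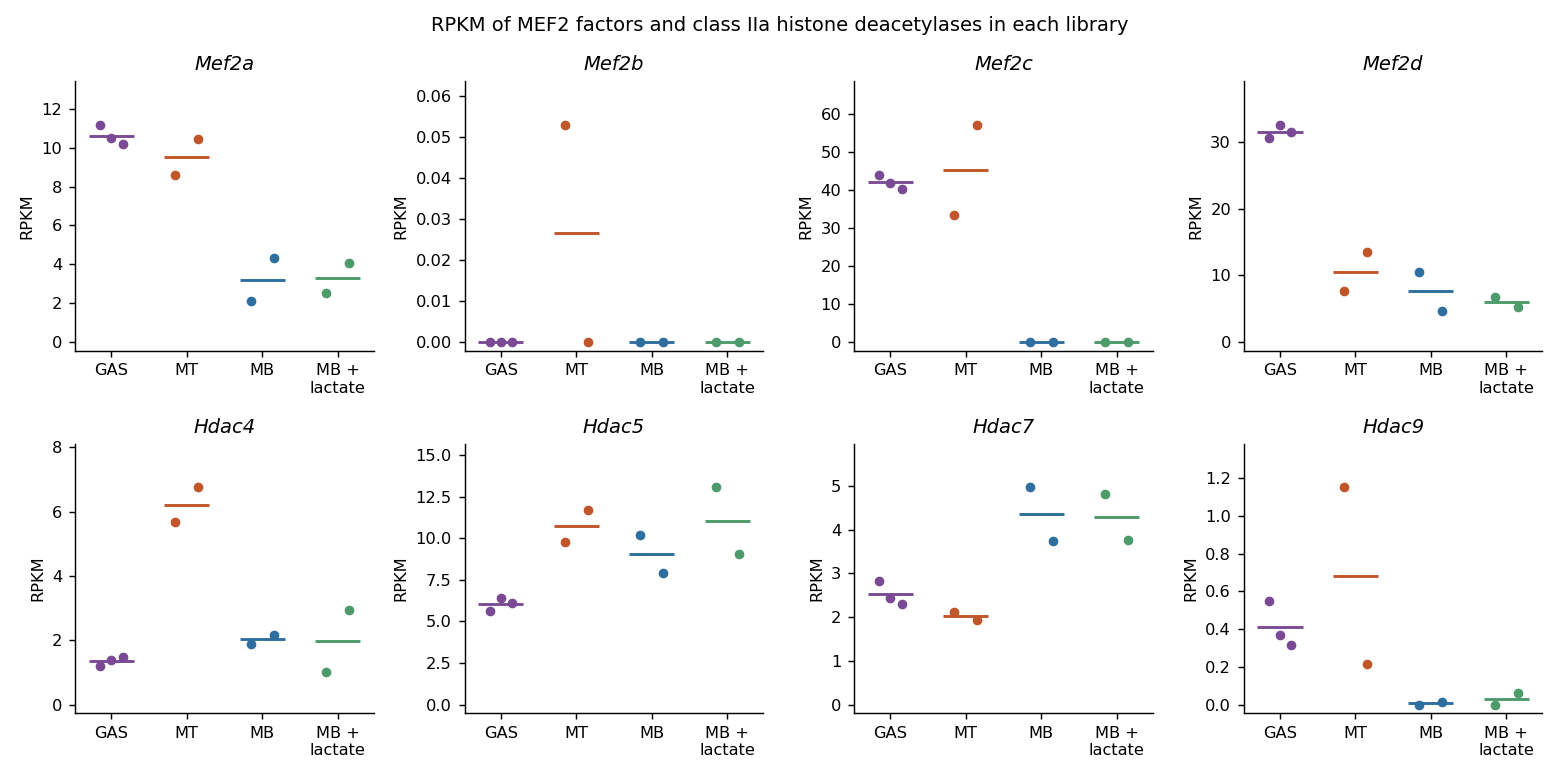
RPKM of each of the 8 genes (1 panel per gene, each with its own linear axis) in GAS (3 libraries), MT, MB and lactate-treated MB (2 libraries each); points are libraries and lines are group means. Mef2c stands at 33.5 RPKM or more in every GAS and MT library and below 0.1 RPKM in MB, while Hdac4 is highest in MT and Mef2d in GAS.

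**Figure D2:**
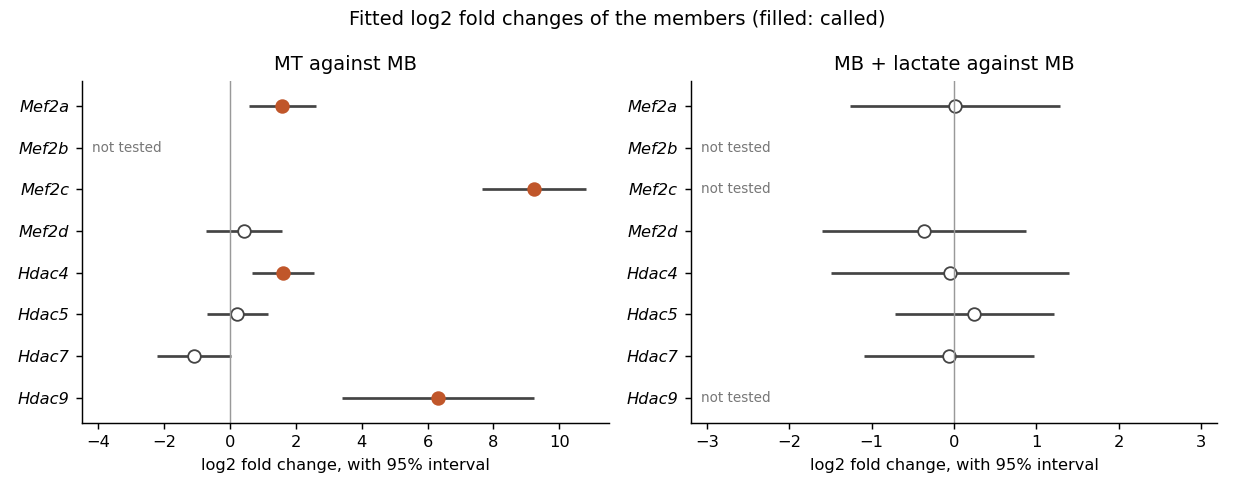
Log2FC of each gene with its 95% interval from edgeR, for MT against MB and for lactate-treated against control MB; filled points were called. In MT against MB, 4 genes were called higher, and in the lactate comparison the intervals of all 5 genes tested include 0.

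The comparison of lactate-treated with control MB asks whether added lactate changes RNA levels. No gene of either family was called. At the thresholds above, 0 of 11804 genes were called higher and 0 lower by edgeR, which is 0%, and 0 passed a nominal p under 0.01 with an absolute log2FC over 0.5. At an unadjusted p under 0.05 there were 5 genes, and DESeq2 called 0 genes and had 3 at that level. The count of genes past the nominal threshold rested on single libraries, with 177 without MB replicate 2, 19 without MB replicate 1, 2 without lactate-treated replicate 2 and 1 without lactate-treated replicate 1, and 2 genes were called higher without MB replicate 1. None of these genes was a member. Mef2a had 2.52 and 4.07 RPKM with lactate against 2.11 and 4.30 RPKM in controls, with a log2FC of 0.01 and a 95% interval from -1.26 to 1.29. For Mef2d, lactate-treated libraries had 6.78 and 5.29 RPKM (log2FC -0.37, interval -1.61 to 0.87). Both lactate values of Mef2d lay between the control values of 10.5 and 4.71 RPKM.

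Hdac4 had 1.02 and 2.95 RPKM with lactate, to either side of the controls, and a log2FC of -0.05 with an interval from -1.50 to 1.40. Hdac5 had 13.1 and 9.03 RPKM (log2FC 0.24, interval -0.72 to 1.21), and Hdac7 had 4.81 and 3.76 RPKM (log2FC -0.06, interval -1.10 to 0.97). The adjusted p of these 5 genes was 1.00 by edgeR, and lactate-treated and control libraries overlapped for each of the 5. The share of all genes that overlap in this way was not counted. Since each interval reaches beyond a log2FC of 0.5 in both directions, the test does not show that lactate left these genes unchanged.

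Mef2c and Hdac9 were below the filter on low counts in this comparison, with 4 and 6 counts of Mef2c and 0 and 5 counts of Hdac9 after lactate. In all 5 tested genes, the replicates differed in the same direction with and without lactate. Over all genes that passed the filter, same-numbered libraries also deviated together (r = 0.706), so that this is not particular to these genes. Replicate 1 had less Mef2a and Hdac4 and more Mef2d, Hdac5 and Hdac7 than replicate 2, in the controls and in the lactate-treated cells. Replicate 1 is also the number with 9.20% and 13.8% of its counts on ribosomal RNA genes, and the part of this in the values was not tested.

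In GAS, the 3 MEF2 genes with reads were the highest of the 8, and the libraries were close to each other. Mef2c had 42.0 ± 1.74 RPKM, Mef2d 31.6 ± 1.04 and Mef2a 10.6 ± 0.516 (SD, n = 3), and no neighbours in this order overlapped. Hdac5 had 6.06 ± 0.398 RPKM, Hdac7 2.52 ± 0.273, Hdac4 1.36 ± 0.139 and Hdac9 0.412 ± 0.120. The ranges of these neighbours did not overlap either. In MT, Mef2c was first with 45.3 ± 16.7 RPKM (SD, n = 2). Hdac5 with 10.7 ± 1.33, Mef2d with 10.6 ± 4.15 and Mef2a with 9.53 ± 1.31 RPKM overlapped with their neighbours, and Hdac4 followed with 6.21 ± 0.765 RPKM. In MB the order began with Hdac5 at 9.08 ± 1.61, Mef2d at 7.61 ± 4.10, Hdac7 at 4.36 ± 0.866, Mef2a at 3.21 ± 1.55 and Hdac4 at 2.03 ± 0.204 RPKM, and neighbours among these 5 genes overlapped. Mef2c and Hdac9 were far below them.

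Poly(A) RNA was sequenced for GAS and the cultured cells went through Smart-seq2, and each was scaled by TMM on its own, so that tissue and protocol cannot be told apart and no test was made between them. Side by side, Mef2c and Mef2a had like levels in GAS and MT, Mef2d stood at 31.6 RPKM in GAS and 10.6 RPKM in MT, and Hdac4 at 1.36 RPKM in GAS and 6.21 RPKM in MT. The Hdac4 value of GAS was below that of MB as well. Endothelial markers summed to between 172 and 193 CPM in GAS, with none of the 6 at 0, and Hdac7 is a gene of endothelium, but their part in its GAS value was not tested.

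The make-up of the MEF2 family changed with the cell state. Mef2c made up 0.676% of the summed MEF2 RPKM in MB, 68.8% ± 2.27 in MT and 49.8% ± 1.15 in GAS. By exonic length, Mef2d had the largest share in MB, at 82.7% and 51.9% in the 2 libraries, and made up 16.0% ± 0.913 in MT and 37.6% ± 1.55 in GAS. Mef2a held 16.6% and 47.4% in MB. By the longest transcript the order in MB replicate 2 turned, with 68.0% for Mef2a and 31.1% for Mef2d, while Mef2d stayed ahead in replicate 1 with 66.7% against 32.1%. Among the class IIa deacetylases, Hdac5 held a similar share in the 3 states by exonic length. It held 58.5% ± 1.87 in MB, 54.5% ± 3.16 in MT and 58.5% ± 2.94 in GAS. By the longest transcript, Hdac5 held 60.2%, 52.0% and 59.5% in these states. With sums of CPM, it held 56.2%, 43.5% and 54.4%, and in MT it was behind Hdac4 with 45.3%. By exonic length, Hdac4 held 13.3% ± 3.27 in MB, 31.5% ± 1.81 in MT and 13.1% ± 1.37 in GAS. Hdac7 held 28.1% ± 1.49, 10.4% ± 1.36 and 24.4% ± 2.83. These shares are descriptions, with n = 2, 2 and 3, and depend on the length used for each gene.

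The summed RPKM of the MEF2 genes was divided by that of the class IIa deacetylases in each library, a ratio of RNAs that does not depend on library scaling. It was 0.744 and 0.654 in MB, 2.66 and 3.94 in MT and 8.36, 8.002 and 8.02 in GAS. The deacetylase sum was 15.5 ± 2.26 RPKM in MB and 19.7 ± 1.30 in MT, while the MEF2 sum was 10.9 ± 2.56 in MB and 65.5 ± 22.2 in MT. Thus the ratio differed between MT and MB by 2.21 on the log2 scale, mainly through the MEF2 sum, with a two-sided exact permutation p of 0.333, the smallest that 2 against 2 libraries allow. In lactate-treated MB the ratio was 0.495 and 0.596, below both controls (exact permutation p = 0.333). When the length of the longest transcript was used in place of exonic length, the lactate-treated libraries (0.486 and 0.661) overlapped with the controls (0.652 and 0.761).

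**Figure D3:**
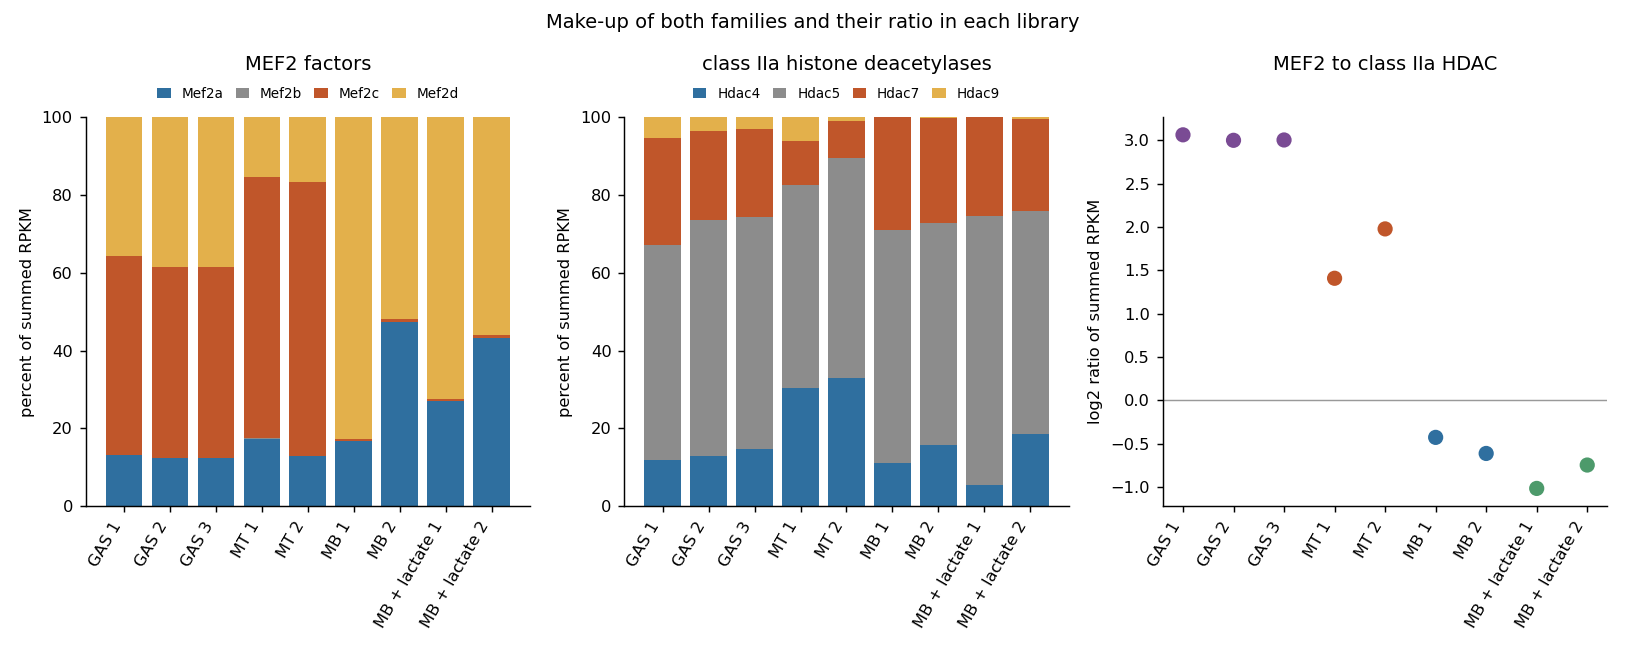
Percent of the summed RPKM of each family held by each gene, per library (left, MEF2; middle, class IIa deacetylases), and the log2 ratio of the MEF2 sum to the deacetylase sum (right; points are libraries). Mef2c holds 67.2% to 70.5% of the MEF2 sum in MT and 0.676% in MB, and the ratio is above 0 in every GAS and MT library and below 0 in every MB library.

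The 7 lists of other genes around these families held 79 genes, of which 76 were tested in MT against MB, and 19 were called higher and 3 lower by edgeR. Most of those called higher were known MEF2 target genes: 15 of 19 tested were higher and 0 lower, against 11.0% higher among all genes. Several of these were near 0 in MB and passed the filter only through MT. Among genes with at least 10 counts in every library, 5 of 9 target genes and 7.19% of all such genes were called higher. The median log2FC of the 19 was 4.69, also with Xirp2, which had 0 counts in MB, at its bound from a floor of 3 counts per library (at least 26.3-fold higher), and 2.60 over the 9. Myog and Ckm are on this list and among the markers of myotubes above. Myoz2, a calcineurin-binding protein of the Z-disc, had 91.0 and 172 CPM in MT and 2 and 1 counts in MB. The ratio to both MB libraries was 499 in MT replicate 1 (exact 95% counting interval 170.4 to 2424) and 944 in MT replicate 2 (322 to 4583). Myom1 and Myom2, which crosslink thick filaments in the M-band, had a log2FC of 8.30 ± 0.70 and 7.49 ± 0.63 (SE; edgeR, adjusted p = 9.61e-05 for each). Smpx, a small costamere protein, had a log2FC of 7.92 ± 0.65 (edgeR, adjusted p = 9.21e-05). Of the target genes not called, Des had a log2FC of 2.05 (edgeR, adjusted p = 0.0794), Stac3 1.00, Ppargc1a 0.36 and Jun -1.02. With each library left out in turn, the median log2FC of the 19 ran from 4.20 to 5.21, and that of all genes tested from -0.02 to 1.00.

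Of the kinases that phosphorylate class IIa deacetylases, 2 of 17 tested were higher and 0 lower, a share close to the 11.0% of all genes, with a median log2FC of -0.09. Both encode CaMKII subunits, were near 0 in MB and passed the filter only through MT, where they are high. Among genes with at least 10 counts in every library, 1 of 13 kinases and 7.19% of all such genes were called higher. That kinase was Prkaa2 (log2FC 2.08, edgeR adjusted p = 0.0404), since this minimum leaves out Camk2a and Camk2b. With the filter on low counts, Prkaa2 was not called by edgeR (log2FC 1.96, adjusted p = 0.0545) but was called higher by DESeq2 (adjusted p = 0.0229). Camk2a had 106 and 75.3 CPM in MT and 1.23 and 0 CPM in MB (log2FC 7.17 ± 0.98; edgeR, adjusted p = 0.00105), and Camk2b had 39.7 and 42.7 CPM in MT and 0.613 and 0.241 CPM in MB (log2FC 6.54 ± 0.72; edgeR, adjusted p = 0.000272). In GAS, Camk2a had 472, 436 and 505 CPM. The 14-3-3 genes, whose products hold phosphorylated deacetylases in the cytoplasm, had a log2FC below 0 in the 6 of 7 that were tested, with a median of -1.15. Of all 12921 genes tested, 6761 had a log2FC above 0. The 7th 14-3-3 gene, Sfn, had at most 1 count per library of MT or MB. Of the 6, 2 were called lower, against 6.86% of all genes. These were Ywhaq, with 135 CPM in both MT libraries and 347 and 447 CPM in MB (log2FC -1.55 ± 0.45; edgeR, adjusted p = 0.0376), and Ywhah (log2FC -1.52 ± 0.47; edgeR, adjusted p = 0.0465). With either MT library left out, none of the 14-3-3 genes was called, and without MB replicate 1 there was 1. With the replicate number as a block, both calls were lost (edgeR, adjusted p = 0.0908 for Ywhaq and 0.0823 for Ywhah).

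None of the 11 kinases and calcineurin subunits that act on MEF2 and were tested was called by edgeR on the 4 libraries with the filter. Of them, 2 had an unadjusted p under 0.05, against 4197 of all 12921 genes tested. These 2 were near the threshold, Map2k3, a kinase upstream of p38, with a log2FC of -1.78 (adjusted p = 0.0524), and Ppp3ca, a catalytic subunit of calcineurin named after its values were seen, with 1.98 (adjusted p = 0.0583). Both were called by DESeq2, and by edgeR with no filter, with the replicate number as a block (adjusted p = 0.0252 and 0.0167) and without MT replicate 2 or MB replicate 2, and Map2k3 also without MB replicate 1. Map2k5 was called lower without MB replicate 2 (adjusted p = 0.0161). The highest in MT were Map2k3 and Ppp3r1, the regulatory subunit of calcineurin (log2FC 0.63, edgeR adjusted p = 0.341). Of 7 coactivators, 1 was called higher, against 11.0% of all genes. This was Kat2b, an acetyltransferase (log2FC 2.37 ± 0.69, edgeR adjusted p = 0.0387), which was not called without MT replicate 1. Crebbp had a log2FC of -0.50 (edgeR, adjusted p = 0.461). None of the 9 corepressors and partners was called by edgeR or DESeq2. At an unadjusted p under 0.05 there was 1 in each, against 4197 of all 12921 genes by edgeR and 4303 by DESeq2. Cabin1, which binds both calcineurin and MEF2, had a log2FC of -1.34 by edgeR. It was called lower only in the fit without MB replicate 2 (log2FC -1.78). Gps2 and Tbl1x, subunits of the NCoR complex, had a log2FC of -0.67 and -0.77. Of the 7 other zinc-dependent deacetylases, 1 was called higher (Hdac11, of class IV) and 1 lower (Hdac1, of class I). Among all genes, 11.0% were called higher and 6.86% lower, and 1 gene in each direction is no result about the list. Hdac11 had 14.6 and 26.7 CPM in MT and 2.70 and 0.603 CPM in MB (log2FC 3.58 ± 0.80; edgeR, adjusted p = 0.0122). Hdac1 had 31.9 and 46.9 CPM in MT and 101 and 103 CPM in MB (log2FC -1.39 ± 0.43; edgeR, adjusted p = 0.0473), and was not called when either MT library was left out or with the replicate number as a block (edgeR, adjusted p = 0.0814). In the lactate comparison, 0 of 65 tested genes of these lists were called by edgeR or DESeq2, and 0 had an unadjusted p under 0.05 in either.

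**Figure D4:**
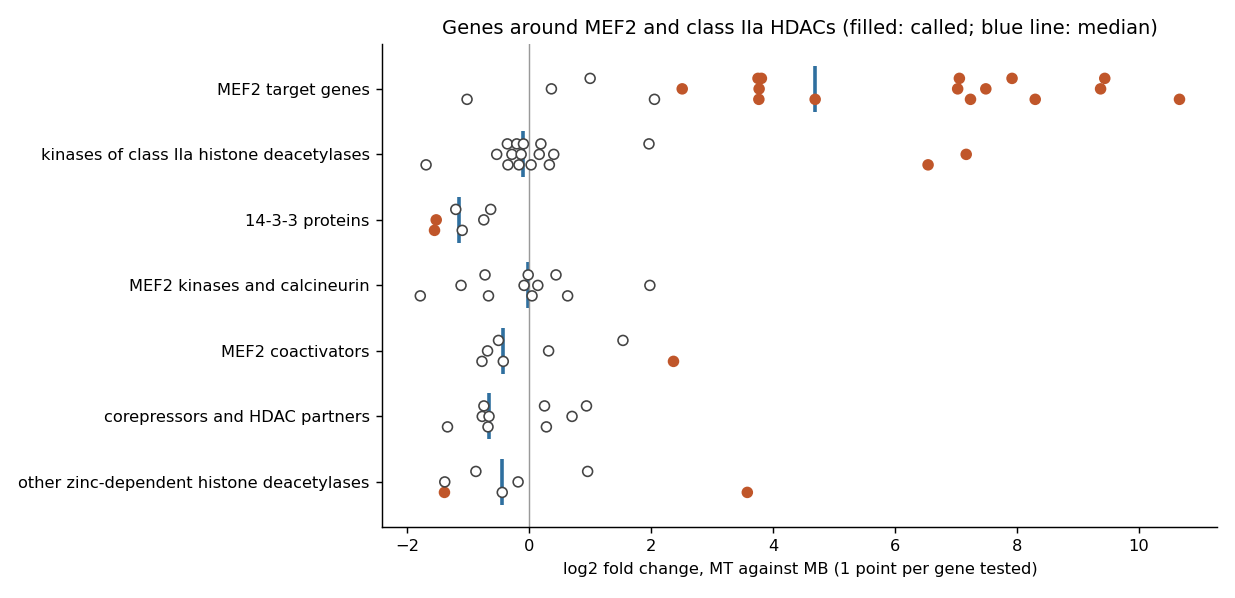
Log2FC in MT against MB from edgeR for the genes of the 7 lists that were tested (1 point per gene; filled, called; blue line, median of the list). The MEF2 target genes lie around a median of 4.69, and the other 6 lists have medians below 0.

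Over the 6 cultured libraries, Hdac7 ran against Mef2a (r = -0.989) and Mef2c (r = -0.953), and Mef2c ran with Hdac4 (r = 0.887), on log2(CPM + 1). These correlations describe 6 libraries in which MT differ from the rest, and carry no test. The genes with the pattern most like Mef2a were Mir22hg, Mtmr1 and Tmem123, out of 367 genes of 13104 with r above 0.95. Those most like Mef2c were Tspan32, Itgbl1 and Prr32, out of 1068 such genes, and those most like Hdac4 were Arhgef26, Adgrl3 and Abhd6, out of 235. For Hdac9 they were P2ry14, Pisd-ps1 and Plcb1, out of 313, and for Hdac7 Aqp1, Atad3a and Ppif, out of 559. For Mef2d there were 25 such genes, led by Fzd2, Stat5b and Lrig1, and for Hdac5 there were 17, led by Stk36, Mrpl24 and Gsdmd.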

How the data were processed

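Per the labels and the study's methods, the authors trimmed reads with Trim Galore 0.6.6, aligned them to mm10 with HISAT2 2.2.1 and counted them per gene with featureCounts (Subread 2.0.1), and the deposited values are raw counts, 1 file per library; the versions, and FastQC 0.11.0, are those of the submitters' processing notes. Annotation release, strand setting and treatment of reads with several alignments are not given in the sources used here. Names, coordinates and lengths came from GENCODE M21 (45229 of the 46078 genes listed for cultured cells and 36429 of the 38293 for GAS matched) and promoter sequences from RefSeq (GRCm38.p6). The 8 members and the lists were chosen with earlier results of these data known.

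Each comparison was fitted over its 4 libraries with edgeR 4.0.16 (R 4.3.3; filterByExpr, TMM, quasi-likelihood test, Benjamini-Hochberg adjustment over all genes), after a test on simulated data. Standard errors are the absolute log2FC divided by the root of F. A floor of 3 counts corresponds to 0.223 to 0.533 CPM per cultured library and at most 0.156 CPM in GAS, on the TMM scale of all CPM and RPKM given. Alternatives were RLE size factors, DESeq2 1.42.0, no filter, at least 10 counts in every library, all 6 cultured libraries, the replicate number as a block and leaving out each library. Beside the members, up to 4 called genes with the smallest adjusted p are named per list, or, where under 2 were called, also the 2 highest in MT by RPKM. Genes not called in the target list were named after their values were seen, as were 4921508M14Rik, Prkaa2, Ppp3ca, Map2k5, Cabin1, Sfn and Xirp2. Tables were joined with pandas 2.3.3 (Python 3.11.15), permutation p-values came from scipy 1.17.1 and plots from matplotlib 3.10.9. CUT&Tag data were not analysed here.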

Additional observations from a re-analysis of the deposited data

How the results depend on the processing

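In MT against MB, Mef2c kept its direction and its call in every fit that tested it, and no gene of either family was called in the lactate comparison under any alternative. With 2 libraries per group, the calls of Mef2a, Hdac4 and Hdac9 rest on single libraries. When each library was left out in turn, the log2FC in MT against MB ranged from 1.10 to 2.01 for Mef2a, 1.39 to 1.68 for Hdac4 and 4.51 to 9.60 for Hdac9. It ranged from -0.15 to 1.12 for Mef2d, -0.09 to 0.39 for Hdac5 and -1.44 to -0.92 for Hdac7. A group left with 1 library is assumed to vary like the other. In the lactate comparison these ranges were -0.42 to 0.63 for Mef2a, -0.83 to 0.40 for Mef2d, -1.06 to 0.55 for Hdac4 and -0.24 to 0.24 for Hdac7. With all 6 cultured libraries in the fit, the log2FC of Hdac4 was 1.63 (adjusted p = 0.0581). A minimum of 10 counts in every library removed Mef2c and Hdac9 from the test, so that 2 members and 7 genes of the lists were called higher and 0 lower. DESeq2 called 5 genes of the lists lower.

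Same-numbered libraries of MB and lactate-treated MB deviated together (r = 0.706) and those of MT and MB did not (r = -0.118), and the labels name no shared animal or day, so that no pairing is established. With the replicate number as a block, all 4 members stayed called in MT against MB (log2FC 9.20 for Mef2c, 1.65 for Mef2a, 1.61 for Hdac4 and 5.81 for Hdac9), 1 gene of the lists was called lower in place of 3 (Map2k3, while Ywhaq, Ywhah and Hdac1 were lost), and in the lactate comparison 0 genes were called, 166 had an unadjusted p under 0.05 and 13 passed the nominal threshold in place of 0. With crossed numbers, an alternative added after seeing the data, the same 4 members were called, with 1192 genes higher and 867 lower in all. The log2 ratio of MEF2 to deacetylase RNA was 3.02 in GAS and 1.69 in MT with exonic length, 3.34 and 2.13 with the longest transcript and 3.36 in GAS with sums of CPM. The share of Mef2c was 62.4% in GAS, 74.9% in MT, 1.07% in MB and 0.896% in lactate-treated MB with the longest transcript, and 65.6%, 77.3%, 1.23% and 1.03% with sums of CPM. With the longest transcript, Mef2a stood above Mef2d in MT (25.3 against 11.7 RPKM) and, with overlapping libraries, in MB (8.50 against 8.43 RPKM), and with sums of CPM Mef2a held 68.4% and Mef2d 30.5% in MB replicate 2.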
